A study of Homo sapiens with 8 samples.

Results

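Cadherins and the catenins that bind them hold epithelial cells together at adherens junctions, and their levels were followed here in A549, a line from a human lung adenocarcinoma. The genes listed were CDH1, CDH2, CDH3, CDH6, CDH11, CDH17, CTNNA1, CTNNB1 and CTNND1, and a probe set was taken as a member where the platform annotation gave it 1 of these symbols alone. This left 24 probe sets of 8 genes, among 19775 genes with a probe set of their own and 54613 probe sets tested. CTNND1, which encodes p120-catenin, had 0 such probe sets, because all 4 of its probe sets also carry the symbol of a read-through gene, so no value is given for it. Where a gene had several probe sets, the one with the highest mean over all arrays stands for it.

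The cells were grown as monolayers (2D) or as spheroids (3D) that were formed in hanging drops and kept on plates to which they do not attach. Each culture type received vehicle (2D control, 3D control) or TNF at 10 ng/ml together with TGFβ at 2 ng/ml (2D treated, 3D treated), in 2 rounds of 48 h, a protocol used to induce epithelial-mesenchymal transition (EMT). All groups are the same cell line with no engineered allele, and each was measured on 2 Affymetrix U133 plus 2.0 arrays, 8 in all. The study's methods speak of technical duplicates and the deposited design of biological ones, so the p-values measure only the spread between these arrays, which may be technical. Values are GCRMA expression on the log2 scale, where 1 unit is a doubling, 2.23 is the lowest value on any array and the array medians lie between 2.43 and 2.50. A group is called near background where each of its 2 arrays reads below that array's median, and levels of different probe sets are not compared with each other.

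The line was checked by its markers. KRT8, KRT18 and the A549 metabolic genes AKR1C1, AKR1B10, NQO1 and ALDH1A1 had group means of 12.40 or more in every group, EPCAM lay between 6.12 and 8.32 and KRT19 between 6.87 and 9.77. Of 8 measured markers of blood, vessel, liver and muscle cells, 5 were near background in all groups, among them PTPRC, CD3E and CDH5, while PECAM1 lay between 4.30 and 4.51 and CD14 between 5.66 and 9.24. Over the 12661 genes that exceeded the median on 2 or more arrays, the 3D treated arrays differed from each other somewhat more than the other pairs, with 11.3% of genes apart by over 0.5 log2 units against 4.93% to 8.63% in the other groups.

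Classical cadherins are single-pass membrane proteins whose outer domains bind the same cadherin on the neighbouring cell in the presence of calcium. Inside the cell, β-catenin (CTNNB1) binds the cadherin tail and α-catenin (CTNNA1), which links the complex to actin, while p120-catenin keeps the cadherin at the membrane. A fall of E-cadherin (CDH1) with a rise of N-cadherin (CDH2) is a textbook mark of EMT, and β-catenin that is not bound to cadherins can also act in the nucleus as a partner of TCF factors. The arrays measure RNA alone, so neither junctions nor the place of a protein in the cell is measured.

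Promoter sequence is shown for CDH2 and CTNNA1, which had a difference between groups that passed the test. A RefSeq promoter entry (GRCh38.p14) was used only where it met the gene's annotated start, which gave 3 of the 9 members. CDH17 was left out of the search. A member without a window here may thus still have a promoter entry in RefSeq. Each run is the 250 bases before the gene's start, written on the gene's own strand, and capitals mark the GC box GGGCGG or its reverse complement, overlapping matches included.
CDH2, chr18:28177131-28177380, minus strand: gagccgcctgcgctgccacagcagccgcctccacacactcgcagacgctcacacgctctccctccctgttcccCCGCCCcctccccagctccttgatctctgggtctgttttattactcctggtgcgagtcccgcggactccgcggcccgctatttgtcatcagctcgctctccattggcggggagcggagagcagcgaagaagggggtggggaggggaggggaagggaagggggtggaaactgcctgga
CTNNA1, chr5:138753175-138753424, plus strand: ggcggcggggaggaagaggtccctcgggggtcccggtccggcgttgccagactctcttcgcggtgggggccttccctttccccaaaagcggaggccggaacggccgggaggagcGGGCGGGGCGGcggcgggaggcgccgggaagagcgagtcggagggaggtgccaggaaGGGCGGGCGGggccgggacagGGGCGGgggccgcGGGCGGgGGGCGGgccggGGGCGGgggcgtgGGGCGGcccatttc
The CDH2 window held 1 GC box at 66.0% G and C, and the CTNNA1 window held 9 at 80.0%. CTNNB1 (chr3:41199255-41199504, plus strand) held 3 at 74.4%. GGGCGG was found in 42.6% of 34788 promoter windows of the same length. The E-box CAGGTG, the form bound by the ZEB and SNAI repressors, was in none of the 3 windows and in 17.5% of all windows, and the general E-box CANNTG, which includes it, was in none of the 3 and in 61.8% of all. TGANTCA, the AP-1 site, was also in none of the 3 and in 6.59% of all windows. These counts say only which letters lie in these windows, on both strands. CDH1 had no window here, so no E-box count is given for it.

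In 3D cultures given TNF and TGFβ, CDH1 and CDH17 fell and CDH2 and CDH11 rose. CDH17 fell 4.33-fold and CDH1 1.88-fold, while CDH2 rose 7.96-fold and CDH11 4.04-fold. Neither catenin passed the test in this comparison, and CDH6 was at the floor of the scale in both 3D groups. Of the 8 measured genes, 3 were called higher and 2 lower by limma at an adjusted p of 0.05, and 6 had an unadjusted p under 0.05. The third call upward was CDH3, with means that differ by only 0.12 near the floor. Among all genes, 5.53% were called higher and 10.8% lower in this comparison. These shares count dim genes too, since 12661 of the 19775 genes exceeded the median on 2 or more arrays. The median log2 fold-change was 0.12 over the 8 genes and 0.00 over all genes, and the genes were listed with earlier results of these arrays known.

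**Figure D1:**
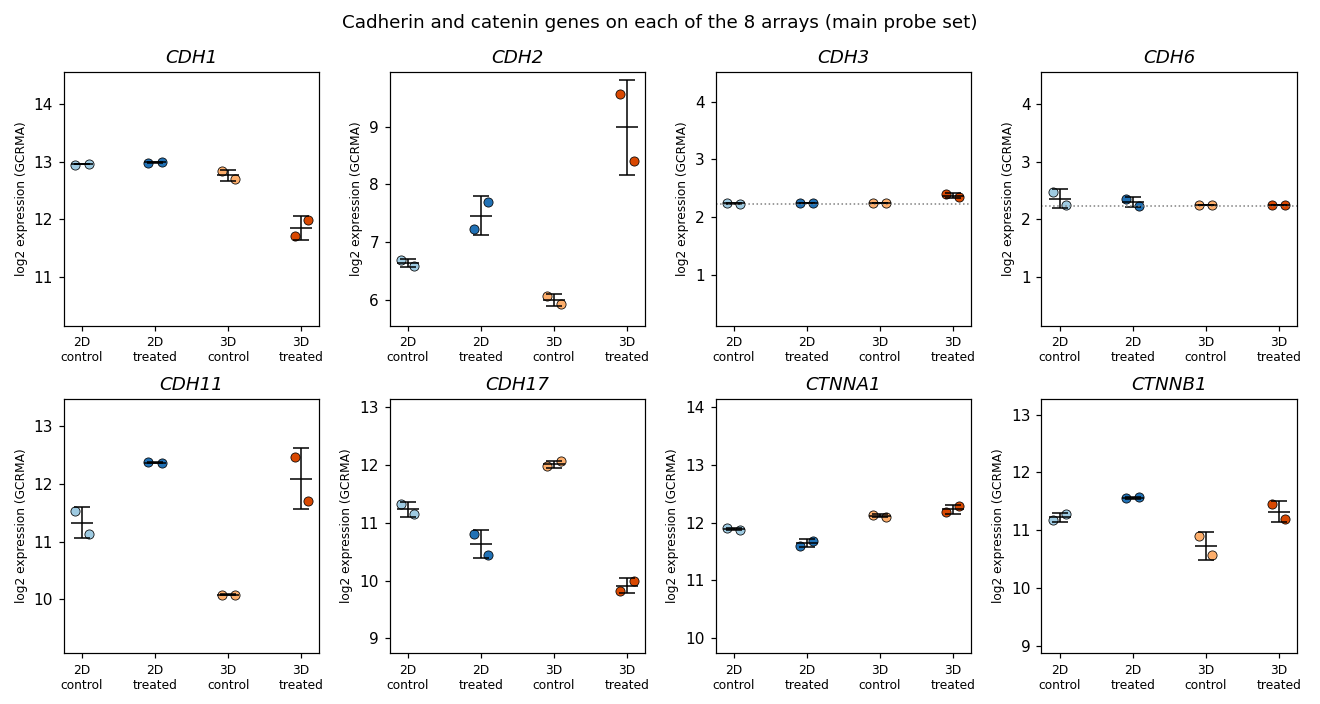
Level of each gene's main probe set on every array. The vertical axis is log2 expression (GCRMA) on a scale of its own for each gene, points are arrays, the line and bar are the mean and SD of 2 arrays per group, and the dotted line is the lowest value of the scale, 2.23. CDH1 and CDH17 are lowest and CDH2 is highest in 3D treated cultures, CDH11 and CTNNB1 are lowest in 3D control cultures, and CDH3 and CDH6 stay near the floor.

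CDH1 encodes E-cadherin, the main cadherin of epithelia. Its probe set read 12.94 and 12.95 in 2D control, 12.98 and 13.00 in 2D treated, 12.83 and 12.69 in 3D control, and 11.71 and 11.99 in 3D treated cultures. Both 3D treated arrays were thus below all the others, and the other groups lay within a narrow band, from 12.69 to 13.00. The 3D response was −0.91 on the log2 scale (SE 0.11, 95% confidence interval −1.20 to −0.63, adjusted p = 0.0155, limma). In 2D the same difference was 0.04, with an interval of −0.24 to 0.33 and an adjusted p of 1. The difference between the 3D and 2D responses was −0.95 (SE 0.15) with an adjusted p of 0.0681, so it did not pass the test, although 3D treated cells were lower than 2D treated cells by 1.14 in a comparison that did pass (log2 difference −1.14, adjusted p = 0.00683). A second, dimmer CDH1 probe set read 7.80 and 8.26 in 3D control and 6.28 and 6.49 in 3D treated cultures, a change of −1.64 (adjusted p = 0.0234), against 0.08 in 2D. The call on the main probe set was lost without the first 3D control array (adjusted p = 0.066) and without the second (adjusted p = 0.0507).

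The level of CDH1 remained high after treatment, at 11.85 ± 0.20 (SD, n = 2) against 12.76 ± 0.10 in 3D control cultures. The summed linear level of the 8 epithelial line markers was 151000 to 153000 in 3D control and 84200 to 85800 in 3D treated cultures. In the 3D response, 7 of these 8 markers were called lower, where 10.8% of all genes were. The bright metabolic genes, such as AKR1C1 (mean 15.06 in 3D control cultures), weigh heavily in this sum, and EPCAM (8.32) hardly does. In 2D, where CDH1 gave 0.04, the same sum lay between 211000 and 216000 in control and between 172000 and 174000 in treated cultures. In bulk RNA, fewer cells that express a gene and less RNA per cell cannot be told apart. The 8 markers of other cells summed to between 380 and 461 in 3D control and between 89.8 and 118 in 3D treated cultures, and with CD14 left out to between 51.0 and 51.4 and between 51.1 and 51.4. The part of either list in the cadherin values was not tested.

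CDH2 encodes N-cadherin, the cadherin of neural and many mesenchymal cells. It read 6.69 and 6.59 in 2D control, 7.22 and 7.70 in 2D treated, 6.07 and 5.93 in 3D control, and 9.57 and 8.41 in 3D treated cultures. The groups did not overlap, with 3D control at the bottom and 3D treated at the top, but the 3D treated arrays were 1.16 apart. The 3D response was 2.99 (SE 0.43, interval 1.83 to 4.15, adjusted p = 0.0246, limma). It was 5.31-fold without the first 3D treated array and 11.9-fold without the second, and the call was lost without either 3D control array, with adjusted p-values of 0.0993 and 0.109. Leaving out either 2D control array (adjusted p = 0.0689) or either 2D treated array (adjusted p = 0.0602) also took it past the threshold. The 2D response was 0.83 with an interval of −0.33 to 1.99 (adjusted p = 0.901). The 2 responses differed by 2.17 (adjusted p = 0.194), and 3D treated exceeded 2D treated cultures by 1.53 (adjusted p = 0.0996), so neither difference passed. Without the second and lower 3D treated array these differences were 2.75 and 2.11. Over all alternatives they went down to 1.58 and 0.95. The second CDH2 probe set, dim at 3.28 and 3.34 in 3D control and 5.26 and 4.24 in 3D treated cultures, gave 1.44 in 3D with an adjusted p of 0.109.

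CDH11 encodes OB-cadherin, first known from osteoblasts and found on many mesenchymal cells. It read 11.53 and 11.14 in 2D control, 12.38 and 12.37 in 2D treated, 10.08 and 10.07 in 3D control, and 12.47 and 11.71 in 3D treated cultures. It was high in both treated groups, whose arrays overlapped, and lowest in 3D control cultures. The 3D response was 2.01 (SE 0.29, interval 1.24 to 2.79, adjusted p = 0.0241, limma). The 2D response was 1.04 (SE 0.29, interval 0.26 to 1.81) and did not pass after adjustment (adjusted p = 0.418), and the difference of the 2 responses was 0.98 (adjusted p = 0.387). Treated 3D and 2D cultures differed by −0.28 (adjusted p = 0.751), or 0.10 without the second 3D treated array, and 3D control cultures lay 1.25 below 2D control cultures (log2 difference −1.25, adjusted p = 0.0896).

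All 4 CDH11 probe sets ran the same way in both responses. Of the other 3, 2 were called in 3D, at 2.23 (adjusted p = 0.0194) and at 3.81 (adjusted p = 0.0143), and the dimmest gave 1.97 (adjusted p = 0.0801). In 2D these 3 gave 0.96, 1.19 and 0.67, none of them called. The probe set with the largest response read 4.79 and 4.56 in 3D control and 9.03 and 7.93 in 3D treated cultures, a 14.0-fold change, so the size of the CDH11 response depended on the probe set. On the main probe set the call was lost without either 3D control array (adjusted p = 0.102 and 0.104), either 2D control array (0.0562) or either 2D treated array (0.0679).

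CDH17 encodes LI-cadherin, a cadherin of intestinal epithelium with a short tail that does not bind catenins. It read 11.33 and 11.15 in 2D control, 10.80 and 10.45 in 2D treated, 11.98 and 12.07 in 3D control, and 9.82 and 10.00 in 3D treated cultures. No groups overlapped, and 3D control cultures stood highest and 3D treated cultures lowest. Its 3D response, −2.12 (SE 0.15, interval −2.52 to −1.71), had the smallest adjusted p among the 8 genes (0.00573, limma), and it passed without each single array. The 2D response ran the same way at −0.61 (interval −1.02 to −0.21) but did not pass (adjusted p = 0.345). The 2 responses differed by −1.50 (SE 0.21, adjusted p = 0.0563), just short of the threshold. In 3D treated against 2D treated cultures CDH17 was lower by 0.72 (log2 difference −0.72, adjusted p = 0.0445), a call that was lost without each single array but the second 2D treated one.

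CDH3 encodes P-cadherin of basal epithelia and lies beside CDH1 on chromosome 16 (CDH3 at 68645310 to 68733771 and CDH1 at 68737292 to 68835537, GRCh38.p14). Its 1 probe set read between 2.23 and 2.25 in both control groups and in 2D treated cultures, and 2.40 and 2.34 in 3D treated cultures, all near background. The adjusted p of 0.0277 in 3D therefore belongs to a difference of 0.12 between values that carry little signal, and it was lost without any 1 of the control or 2D treated arrays. CDH6, the K-cadherin of kidney, had 6 probe sets, of which 3 read 2.23 on all arrays. Its main probe set lay between 2.23 and 2.48, with a 3D response of 0.01 (adjusted p = 1). No statement on either gene beyond this is possible at this signal.

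CTNNB1 encodes β-catenin. Its main probe set read 11.17 and 11.28 in 2D control, 11.55 and 11.57 in 2D treated, 10.90 and 10.57 in 3D control, and 11.45 and 11.19 in 3D treated cultures. The 3D control arrays were the lowest, and 3D treated and 2D control arrays overlapped. The 3D response was 0.59 (SE 0.15, interval 0.19 to 0.99) with an adjusted p of 0.0935, and the 2D response was 0.34 (adjusted p = 0.768), neither of which passed. A dimmer probe set of the gene, at 4.67 and 4.98 in 3D control and 5.70 and 5.72 in 3D treated cultures, did pass in 3D at 0.89 (adjusted p = 0.0209), and another, between 2.56 and 3.30 on all arrays, gave −0.17. With only bright probe sets tested, the main probe set passed as well (adjusted p = 0.0291). The probe sets also differed in sign between treated 3D and 2D cultures, at −0.24 (adjusted p = 0.506) on the main one and 0.73 (adjusted p = 0.0242) on the dimmer one, so no direction is given for CTNNB1 there.

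CTNNA1 encodes α-E-catenin. It read 11.90 and 11.88 in 2D control, 11.59 and 11.69 in 2D treated, 12.13 and 12.10 in 3D control, and 12.18 and 12.29 in 3D treated cultures. All 3D arrays were above all 2D arrays. Its 3D response was 0.12 (SE 0.05, interval −0.02 to 0.26, adjusted p = 0.34) and its 2D response −0.25 (interval −0.39 to −0.11, adjusted p = 0.278). Between treated cultures it was higher in 3D by 0.59 (SE 0.05, adjusted p = 0.00625, limma), and the 3 other probe sets above background gave 0.44 (adjusted p = 0.00579), 0.62 (0.0549) and 0.79 (0.0589). Between control cultures the main probe set gave 0.22 (adjusted p = 0.0957) and these 3 gave 0.11, 0.62 and 0.88, none called, so the size depended on the probe set. In the 2D response they gave −0.28, 0.07 and 0.18, so the probe sets differed in sign. The fifth probe set stayed near 2.47 in every group.

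**Figure D2:**
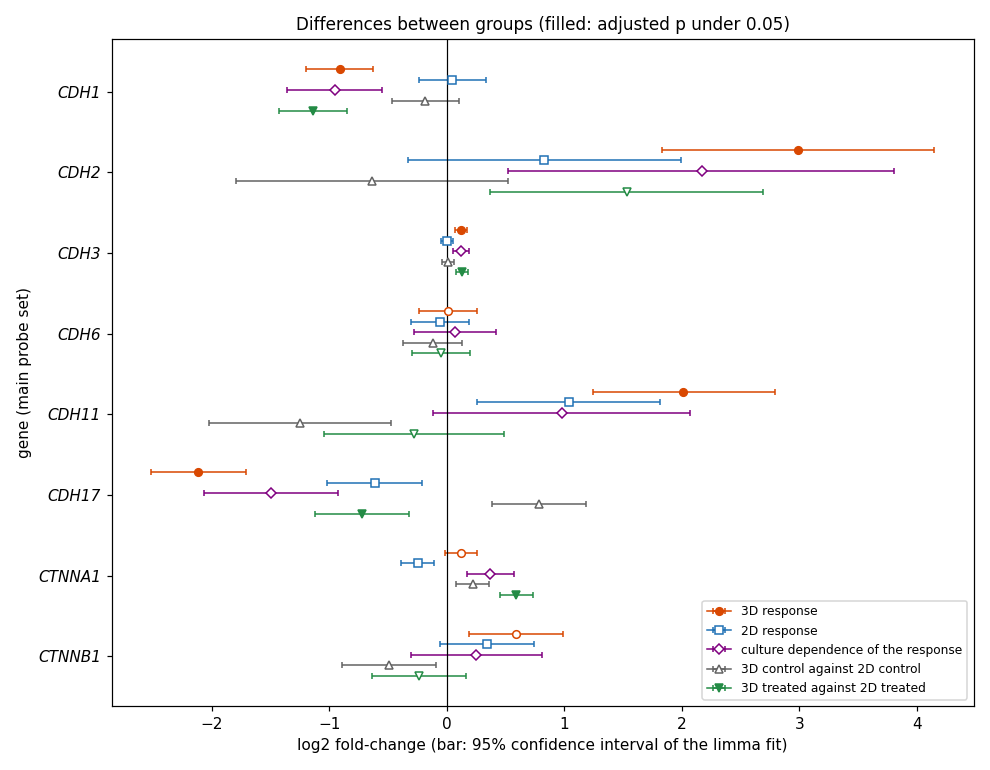
Log2 fold-change of each gene's main probe set in the 5 comparisons. Bars are 95% confidence intervals of the limma fit over all 8 arrays, filled symbols have an adjusted p under 0.05, and the vertical line marks no difference. Filled symbols occur in the 3D response and in 3D treated against 2D treated cultures, and those of CDH3 lie within 0.13 of 0.

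In 2D, 0 of the 8 genes were called and 3 had an unadjusted p under 0.05, where 0.121% of all genes were called higher and 0.0759% lower. The 2D values of CDH2, CDH11, CDH17 and CTNNB1 had the sign of their 3D values and were smaller on the main probe sets. For CTNNB1 this did not hold on the other probe sets, which gave −0.08 and 0.33 in 2D against 0.89 and −0.17 in 3D. The difference between the 3D and 2D responses was called for 0 of the 8 genes, 5 of which had an unadjusted p under 0.05, against 1.32% of all genes called higher and 1.94% lower. For CDH1 and CDH17 that call depended on the settings. With only bright probe sets tested, the adjusted p was 0.0218 for CDH1 and 0.0147 for CDH17. Without the first or the second 3D treated array, the CDH1 difference was −0.82 or −1.09. Without the second 2D treated array, that of CDH17 was −1.67. In such fits the spread of the lone array is taken from the other groups.

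Between untreated cultures, 0 of the 8 genes were called and 4 had an unadjusted p under 0.05, while 5.77% of all genes were called higher and 4.9% lower in 3D. The largest differences were the lower CDH11 and the higher CDH17 of 3D control cultures given above (CDH17 0.78, adjusted p = 0.0599). With only bright probe sets tested, both passed, at adjusted p-values of 0.0222 and 0.0156. The 3D response and this comparison share the 3D control arrays, which were the extreme group for CDH2, CDH11, CDH17 and CTNNB1. Between treated cultures, CTNNA1 and CDH3 were called higher and CDH1 and CDH17 lower in 3D, and 5 of 8 genes had an unadjusted p under 0.05, where 9.06% of all genes were called higher and 14.5% lower.

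**Figure D3:**
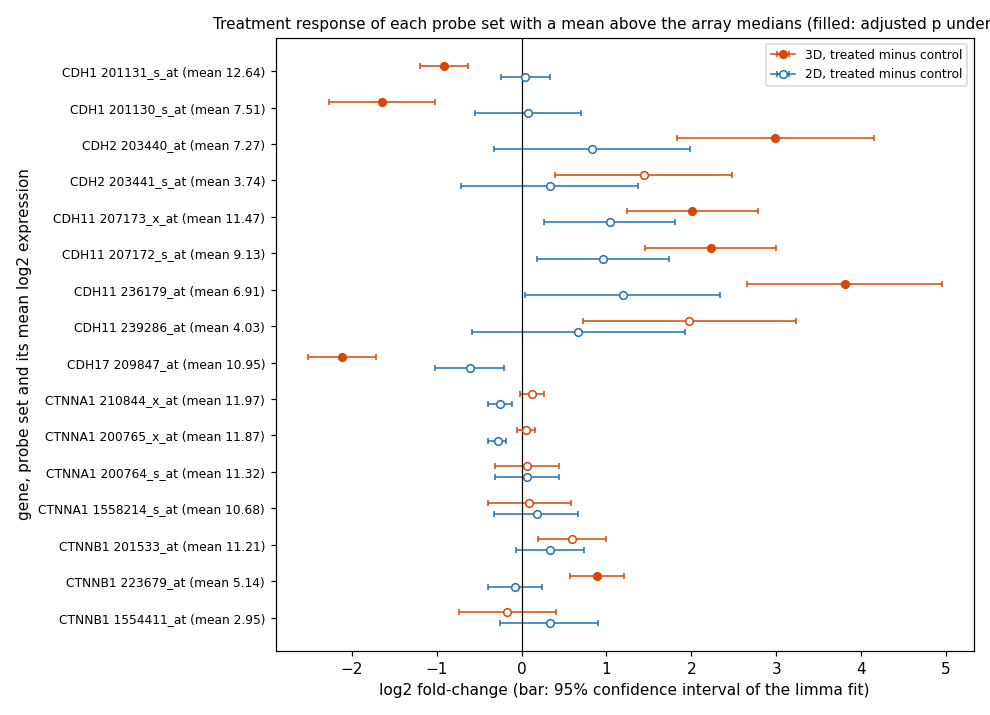
Response to TNF and TGFβ of the 16 member probe sets with a mean above all array medians, in 3D (orange) and 2D (blue). The horizontal axis is the log2 fold-change with its 95% confidence interval and filled points have an adjusted p under 0.05. Both CDH1 probe sets lie below 0 and all CDH2 and CDH11 probe sets above 0 in 3D, the 3 CTNNB1 probe sets differ among themselves, and the CTNNA1 probe sets stay near 0.

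Across the 8 arrays, the values of some members ran together and those of others ran opposite. Pearson's r was 0.93 between CDH11 and CTNNB1, 0.78 between CDH2 and CDH11, −0.79 between CDH1 and CDH2, −0.95 between CDH2 and CDH17, and −0.87 between CDH11 and CDH17. These are descriptions over arrays that fall into 4 groups. Of 12660 other genes, those most like CDH1 were DDX31 (r = 0.99), THRB and KLHL8 (both 0.987), whose means also fell lowest in 3D treated cultures, such as 7.94, 7.92, 7.80 and 6.77 for THRB, a thyroid hormone receptor, in 2D control, 2D treated, 3D control and 3D treated cultures. Those most like CDH2 were MAP3K8 and RNF182 (both 0.991) and IGFN1 (0.985). Those most like CDH11 were CFLAR (0.989), DOCK4 (0.988) and CCL2 (0.987). CCL2, a monocyte chemokine, had means of 12.51, 13.23, 11.06 and 13.01 in the same order of groups, with the low value in 3D control cultures that CDH11 also had.

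Some factors that repress CDH1 by binding E-boxes rose in 3D. ZEB1, ZEB2 and SNAI2 were called higher there, 3 of the 5 listed, where 5.53% of all genes were called higher. ZEB2 was near background in 3D control cultures at a mean of 2.38 and reached 6.46 in 3D treated cultures, at least 16.3-fold higher when the 3D control level is set at the medians of the 3D control arrays (adjusted p = 0.00262 for treated against control). SNAI2 went from 4.60 to 8.67 (log2 difference 4.06, adjusted p = 0.00887) and ZEB1 from 8.28 to 9.67 (1.39, adjusted p = 0.00376). SNAI1 gave 0.47 (adjusted p = 0.259) and TWIST1 0.97 (adjusted p = 0.0828). In 2D the 5 differences were 0.31 for ZEB1, 0.25 for ZEB2, 0.01 for SNAI1, −0.01 for SNAI2 and 0.91 for TWIST1, none called. The part of these factors in the CDH1 values was not tested. The response differed between 3D and 2D cultures for ZEB1 (1.08, adjusted p = 0.0323), ZEB2 (3.83, adjusted p = 0.014) and SNAI2 (4.07, adjusted p = 0.0453).

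Many other cadherins gave no usable signal on these arrays. The 3D calls below stand against 5.53% of all genes called higher and 10.8% called lower in that comparison. Of 14 further classical and related cadherins measured, 8 were near background in all groups, and CDH19 alone was called in 3D, with means of 4.87, 5.60, 4.49 and 7.25 in 2D control, 2D treated, 3D control and 3D treated cultures (log2 difference in 3D 2.76, adjusted p = 0.0378). CDH16, the cadherin of kidney epithelium, gave −1.25 (adjusted p = 0.096). Of 21 protocadherins, FAT, Dachsous, CELSR and calsyntenin genes, FAT1 was called higher in 3D (0.74, adjusted p = 0.00669) and CELSR2, a planar polarity cadherin, lower (−1.38, adjusted p = 0.0432), and 10 were near background. FAT1 was lower in 3D than in 2D control cultures by 1.87 (log2 difference −1.87, adjusted p = 0.00215). Its response differed between cultures by 1.27 (adjusted p = 0.012), with −0.53 in 2D (adjusted p = 0.1).

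Of 9 further catenins and armadillo proteins, 0 were called in the 3D response, and 0 had an unadjusted p under 0.05. JUP, plakoglobin, which can take the place of β-catenin at cadherins, gave −0.11 in 3D (adjusted p = 0.655) and was lower in 3D than in 2D control cultures (−0.73, adjusted p = 0.0264). Among all genes, 5.53% were called higher and 10.8% lower in the 3D response. Of 15 partners of the adherens junction, 5 were called higher and 0 lower there. They were PVR, a nectin-like receptor (2.74, adjusted p = 0.013), the actin linkers vinculin (VCL 0.72, adjusted p = 0.0421) and afadin (AFDN 0.64, adjusted p = 0.043), VEZT, vezatin (0.65, adjusted p = 0.015), and the scaffold IQGAP1 (0.48, adjusted p = 0.0482). PVR means were 8.29, 7.48, 7.40 and 10.14 in the order of groups used above, so that it was highest in 3D treated cultures, and its response differed between cultures (3.55, adjusted p = 0.0402). AFDN was also lower in 3D control than in 2D control cultures (−0.84, adjusted p = 0.0316), with means of 8.98, 9.05, 8.14 and 8.78.

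Of 10 measured genes that act in cutting or removing cadherins, 2 were called higher and 2 lower in 3D. The shares of all genes called there were 5.53% higher and 10.8% lower. FURIN, which removes the cadherin propeptide, gave 0.98 (adjusted p = 0.0108), and ADAM17, a sheddase, 0.71 (adjusted p = 0.048). PSEN2, a subunit of γ-secretase, gave −0.95 (adjusted p = 0.0088), and the ubiquitin ligase MARCHF8 −0.70 (adjusted p = 0.0344). ADAM10, the main sheddase of E-cadherin, gave −0.36 (adjusted p = 0.362).

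Of the genes around nuclear β-catenin, 3 were called in 3D, all of them lower, which is near the 10.8% of all genes called lower there. Of 9 genes of the destruction complex, AXIN2 alone was called in 3D (−1.74, adjusted p = 0.0402). Of 14 partners and targets of β-catenin in transcription, RNF43 (−3.21, adjusted p = 0.00127) and ZNRF3 (−2.20, adjusted p = 0.00928) were called, both ubiquitin ligases that remove Wnt receptors. RNF43 means were 9.93, 9.18, 9.21 and 6.00 in 2D control, 2D treated, 3D control and 3D treated cultures, and its response differed between cultures by −2.46 (adjusted p = 0.00943). AXIN2, RNF43 and ZNRF3 are known Wnt targets. Other targets of the list did not pass, with 0.93 for CCND1 (adjusted p = 0.111), −0.19 for SP5 and −0.09 for NOTUM, and LEF1 and LGR5 were at 2.29 and 2.23 in every group. In 2D, 0 of the 97 measured genes of these lists were called by limma, and 12 had an unadjusted p under 0.05. Few genes of any kind were called there, with 0.121% of all genes higher and 0.0759% lower. Of 17 genes of these lists named for the size of a 3D call, 9 kept their call without the first 3D control array and 9, not all of them the same, without the second, and RNF43 and ZEB1 were called under every alternative.

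**Figure D4:**
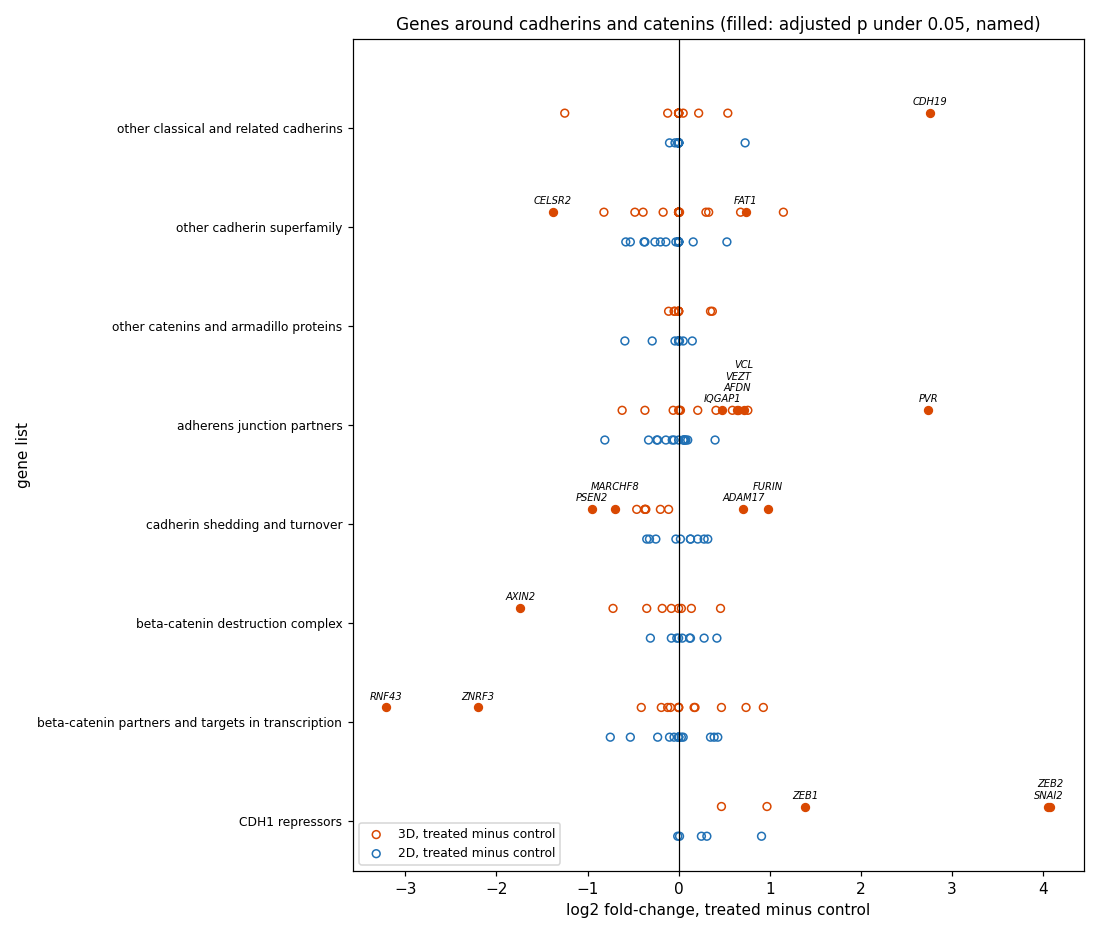
Log2 fold-change, treated minus control, of the genes around cadherins and catenins, 1 point per gene on its highest-mean probe set. Orange points are 3D and blue points 2D cultures, and filled points have an adjusted p under 0.05 and are named. Filled points occur in 3D alone, with ZEB2 and SNAI2 farthest to the right and RNF43 and ZNRF3 farthest to the left.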

How the data were processed

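The authors hybridized total RNA of A549 cultures to Affymetrix U133 plus 2.0 arrays and deposited log2 expression values made with GCRMA, which subtracts background, normalizes and summarizes the probes of a probe set. The submitters' processing notes name limma 3.6.9, and a version of GCRMA is not given in the sources used here. The values were used as deposited, without the 62 control probe sets of 54675. Depth has no counterpart on arrays, and 2 arrays a group limit the precision.

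limma 3.58.1 under R 4.3.3 fitted all 8 arrays as 4 group means (4 residual degrees of freedom), and p-values were adjusted over 54613 probe sets by Benjamini-Hochberg with calls at 0.05. The comparisons were the response in 3D, the response in 2D, their difference, and 3D against 2D cultures without and with treatment. The members and gene lists were chosen with earlier results of these data known. Named are all members, up to 4 called genes of each list with the largest 3D changes (IQGAP1, and genes given for other values, were named after their values were seen), the 5 repressors of CDH1, and for CDH1, CDH2 and CDH11 the 3 genes with the highest Pearson correlation. Gene symbols come from the platform annotation, where 1801 probe sets name several genes and 11721 none. Promoters come from RefSeq. Alternatives were an intensity trend, the replicate number as a block, quantile normalization, leaving out dim probe sets (those not above the median of at least 2 arrays), the probe set with the largest change, only the arrays compared, a minimum fold of 2, and leaving out arrays in turn, where the spread of a lone array is taken from the other groups.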

Additional observations from a re-analysis of the deposited data

How the results depend on the processing

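Of 542 member values under alternatives, 467 kept direction and side of the threshold, 47 lost a call, 16 gained one and 12 changed sign. The 5 genes called in the 3D response became 0 with only the arrays compared and 3 with a fold of at least 2, and 1 to 5 with each array left out. For 3D treated against 2D treated cultures, 4 became 0 and 1 under the same settings and 2 to 4 with an array left out. The difference of responses, with 0 calls, had 1 with an intensity trend, 2 with the filter on dim probe sets and 0 to 3 with an array left out, and 3D against 2D control cultures had 1 with the trend and 2 with the filter. In 2D the count stayed at 0 under all settings. The fit on the 3D arrays alone has 4 arrays, and CDH17 came nearest there (adjusted p = 0.0506).

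With the probe set of largest change, 3D against 2D control cultures gave 0.26 for CDH1, and treated cultures gave 0.65 for CDH11 and 0.73 for CTNNB1, opposite in sign to the main probe sets. CDH11 was also 0.10 there without the second 3D treated array, within a range of −0.66 to 0.10. The other changes of sign were near the floor. Leaving out single arrays gave 0.00 to 0.01 for CDH3 and −0.18 to 0.06 for CDH6 in 2D, 0.00 to 0.01 for CDH3 and −0.24 to 0.00 for CDH6 between controls, −0.12 to 0.01 for CDH6 between treated cultures, and −0.05 to 0.19 for its difference of responses. The cause of these changes was not tested.

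Deviations of arrays with the same replicate number correlated at 0.285 between the 2D groups and at −0.0146 to 0.0918 otherwise. Replicate numbers thus showed some pairing between the 2D groups and little elsewhere. With the number as a replicate block, 4 members were called in 3D (CDH2 lost, adjusted p = 0.06) and 3 between treated cultures (CDH17 lost, adjusted p = 0.0944). Of 17 other genes named for a 3D call, the block kept 11 and the arrays compared alone 2, RNF43 and ZEB1. Over all alternatives, CDH19, CELSR2, VCL and ADAM17 kept their call in 3 or 4 of 13, with adjusted p-values up to 0.245. No gene of these 17 changed sign.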
